A study of Homo sapiens with 6 samples.

Results

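The heat shock proteins and J-domain proteins are molecular chaperones, and their RNA is described here in the established human glioblastoma line U251 after tumour necrosis factor alpha (TNF-α). Members were taken by gene symbol alone: protein-coding genes named HSPA, HSPB, HSPD, HSPE, HSPH, HSP90, DNAJA, DNAJB or DNAJC, without HSPBP1 and HSPBAP1. This gave 71 entries with 70 symbols of 58735 genes in the table, since HSPA14 is listed under 2 identifiers. By the place where the protein works, 39 entries were cytosolic or nuclear, 13 belonged to the endoplasmic reticulum (ER), 8 to the mitochondrion, and 11 were placed elsewhere or not assigned.

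HSP70 proteins bind exposed hydrophobic stretches of unfolded chains and let them go in a cycle driven by ATP, J-domain (DNAJ) proteins bring clients and start ATP hydrolysis, and HSP110 proteins such as HSPH1 exchange the nucleotide. HSP90 proteins finish the folding of kinases and receptors, small HSPs such as HSPB1 hold unfolded chains without ATP, and HSPD1 with its lid HSPE1 folds proteins inside mitochondria. Heat shock factor 1 (HSF1) switches on the cytosolic set by binding inverted GAA repeats called heat shock elements, whereas the unfolded protein response raises ER chaperones such as HSPA5 through ER stress elements. Tumour cells commonly depend on these systems to carry a high load of proteins.

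Cells at about 80% confluence received recombinant human TNF-α at 10 ng/mL or, in the control group (NC), the same volume of sterile deionized water, both for 24 h. Each group had 3 biological replicates, all of the unmodified line, and polyadenylated RNA was sequenced. The values are fragments scaled to merged exon length and a total set for each library (FPKM), which can be compared between genes. That total came to 0.925 to 0.959 times the reads in genes in NC and in TNF-α replicate 1. In TNF-α replicates 2 and 3 it was 0.693 and 0.759 times those reads. A given share of the reads in genes thus has a higher FPKM in these replicates. The 6 libraries held 31992167 to 37897044 reads in genes, so 3 reads in a gene of 2 kb came to an FPKM of 0.0415 to 0.0618.

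TNF-α replicates 2 and 3 stood apart from the other 4 libraries: 16.6% and 17.9% of their reads fell in genes longer than 8 kb, where the others had 28.8% to 29.1%, and ribosomal protein genes took 7.30% and 6.26% against 2.62% to 2.90%. Established TNF-α targets were higher in all 3 treated libraries. All 10 of the listed targets passed the test, among them CCL2 (log2 fold change 5.33), CXCL8 (4.12) and ICAM1 (3.76), and all 10 also passed with TNF-α replicate 1 alone. Of 9 glial and glioblastoma markers 8 were expressed, with S100B at or near 0 and GFAP called lower after TNF-α (log2 fold change -1.54, limma adjusted p = 0.02096). No leukocyte, endothelial or epithelial marker passed the filter on level, and the largest summed FPKM of those lists in any library was 1.58, 0.360 and 0.0595.

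The promoter letters of the members that respond to stress are shown first, because heat shock and ER stress elements are the usual means by which these genes are switched on. The window was the 250 bases before a RefSeq start (GRCh38.p14), read on both strands, and 63 of the 70 symbols had one. Where a symbol had several, the window with the lowest coordinate was kept, on the minus strand the most downstream. Such a window can lie inside the gene, as the DNAJB1 window does, so it need not be the main promoter. HSPB11, DNAJC22, HSPB2, HSPA12B, DNAJC1, DNAJC24 and HSPA14 had no entry. Capitals mark the paired heat shock repeat GAANNTTC, its longer forms GAANNTTCNNGAA and TTCNNGAANNTTC (which contain the paired form and overlap one another), or the ER stress element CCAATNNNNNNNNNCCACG. The windows shown lie at chr6:31827621-31827652 (plus strand), chr14:102087108-102087144 (minus strand), chr7:76302479-76302510 (plus strand), chr9:33025063-33025094 (plus strand), chr2:197500056-197500090 (minus strand) and chr9:125241379-125241421 (minus strand), each written 5′ to 3′ on the strand of its gene.
HSPA1B: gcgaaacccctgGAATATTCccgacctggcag
HSP90AA1: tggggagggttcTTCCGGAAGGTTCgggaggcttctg
HSPB1: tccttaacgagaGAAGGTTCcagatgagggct
DNAJA1: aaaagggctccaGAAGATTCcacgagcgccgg
HSPD1: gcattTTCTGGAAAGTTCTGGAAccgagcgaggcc
HSPA5: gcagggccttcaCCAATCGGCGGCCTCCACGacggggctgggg

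The paired repeat was found in 13 of 63 member windows (20.6%) and in 5.78% of all 35116 promoter windows, which take in every listed start of a gene. The HSPA1A and HSPA1L windows overlap on opposite strands, and the same site within chr6:31815425-31815456 is counted for both. The longer form was found in 5 member windows (7.94%), those of HSPA8, HSPA6, HSP90AA1, HSPD1 and DNAJB6, against 0.441% of all windows. HSPA5 and HSP90B1 were the members with the ER stress element (3.17%), which 0.0740% of all windows held. The plain CCAAT letters, part of that element, were in 24 member windows (38.1%) and in 32.0% of all windows. Such a match describes the letters only, and the absence of one in the HSPH1 and DNAJB1 windows says nothing about the factor. Of the 13 members with the paired repeat 10 were tested below, and their median log2 fold change was 0.24 beside 0.15 over all tested members. On the FPKM scale, on the TPM scale (FPKM rescaled to 1 total per library) and with voom (a fit to whole reads recovered from FPKM) alike, 8 of these 10 lay above the median of all genes tested, and after correction for length and GC content 6 did. With TNF-α replicate 1 alone 6 did, and their median was 0.022. Of all 57 tested members, 35, 34 and 35 lay above it on the FPKM, TPM and voom scales. After the correction 39 did, and with replicate 1 alone 36.

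In control cells, chaperone RNA was dominated by a few cytosolic genes. HSP90AB1, the constitutive cytosolic HSP90, had the highest level at 903 ± 16.2 FPKM (SD, n = 3) and made up 23.1% of the summed FPKM of all members. HSPA8, the constitutive HSP70 known as HSC70, and HSP90AA1, the stress-inducible HSP90, followed at 491 ± 8.93 and 489.6 ± 8.78 FPKM, and their ranges overlapped. HSPB1, a small HSP also known as HSP27, came next at 419 ± 26.9 FPKM. HSPD1, the ER HSP70 HSPA5 (BiP) and the HSC70 partner DNAJA1 lay at 223, 218 and 214 FPKM, and neighbours in this order overlapped. With HSP90B1 and DNAJB1 these were 9 members at 100 FPKM or more, which held 82.1% of the members' summed FPKM. A further 19 members lay between 10 and 100 FPKM, 28 between 1 and 10, and 15 below 1.

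All members together summed to 3971, 3855 and 3908 FPKM in the NC replicates and to 3877, 6277 and 5588 FPKM in the TNF-α replicates. TNF-α replicate 1 was thus inside the control range, and replicates 2 and 3 were above it. The summed FPKM of all genes was higher in the same libraries, at 463340 and 408175 against 256373 to 266716 in the others, so that the members' share was 1.47% to 1.53% in NC and 1.35% to 1.45% with TNF-α.

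**Figure D1:**
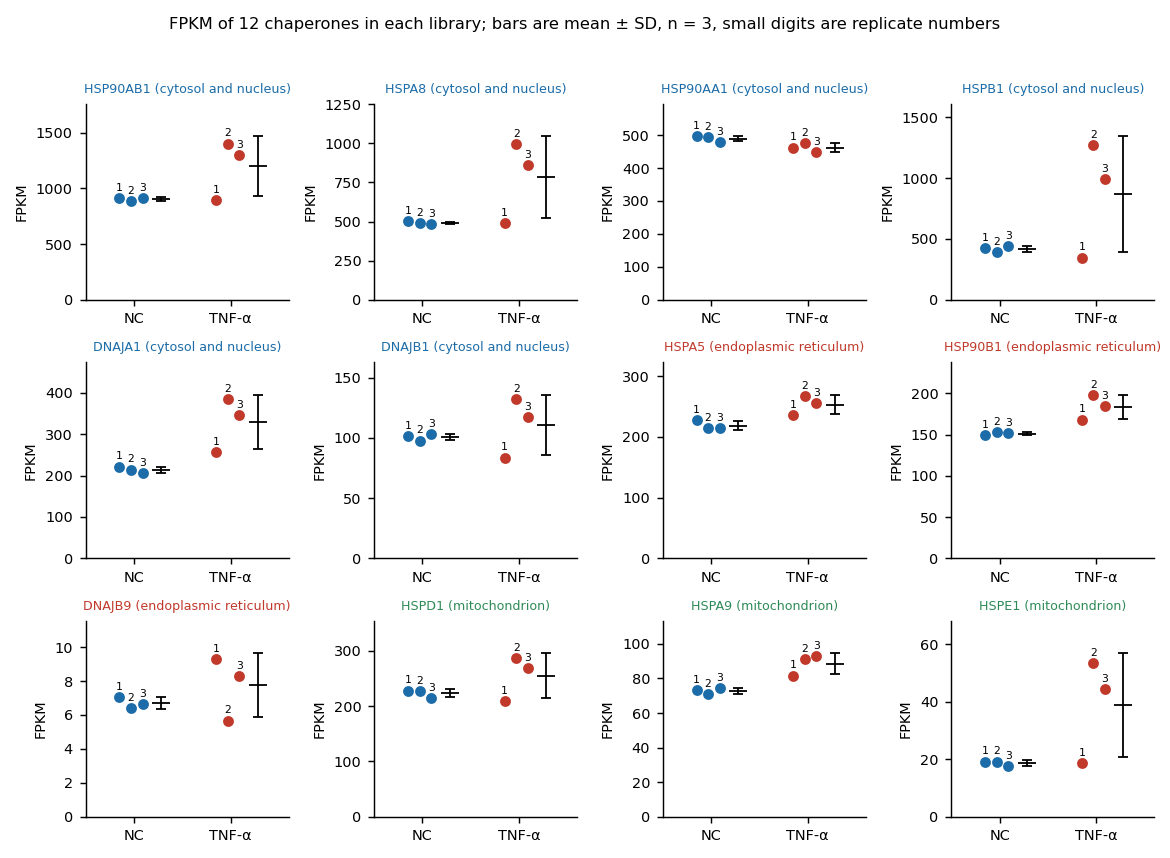
FPKM (y axes, from 0) of 12 abundant or representative chaperones in each NC (blue) and TNF-α (red) library, with the group mean ± SD (n = 3). TNF-α replicate 1 sits at the NC level for HSP90AB1, HSPA8 and HSPE1 while replicates 2 and 3 are higher, and the FPKM of HSPA5, HSP90B1, HSPA9 and DNAJA1 is above NC in all 3 treated libraries.

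TNF-α against NC was tested for the 57 entries with at least 1 FPKM in 3 or more libraries (28 cytosolic, 13 ER, 7 mitochondrial and 9 others). The limma test on log2(FPKM + 1), adjusted over all 12136 genes tested, called 0 of the 57 members, against a background of 1.01% (123 genes), and limma-voom on recovered reads also called 0. At an unadjusted p under 0.05 there were 5 members (8.77%, background 24.2%): HSPA6, DNAJA1, DNAJC1, HSPA4L and DNAJB4, of which DNAJA1 and DNAJB4 are named outside the naming rule, after their values were seen. Of these, HSPA6 passed the filter on level only through its treated libraries. The smallest adjusted p of any member was 0.195. In whole-culture RNA of this kind, fewer cells of a type and less RNA per cell cannot be told apart.

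Log2 fold changes of the members ran from -0.91 for DNAJC6 (auxilin, which uncoats clathrin vesicles) to 1.10 for DNAJC30. They lay above 0 for 37 members (53.0% of all genes tested did) and below for 20. Their median was 0.15 beside 0.043 over all genes tested. On the TPM scale the median of all genes moved to -0.42, and with voom to -0.21. Relative to the median of all genes, 35 of the 57 members were higher on the FPKM scale, 34 on the TPM scale and 35 with voom. Values lay above 0 for 10 members on the TPM scale and for 21 with voom. Directions below are on the FPKM scale, and 12 of the 24 named chaperones (DNAJA3, DNAJB1, DNAJB9, DNAJB11, DNAJC19, HSP90AB1, HSP90B1, HSPA1A, HSPA1B, HSPA5, HSPA9 and HSPD1) turned from above 0 to below 0 on the TPM scale. The medians were 0.12 for cytosolic, -0.025 for ER and 0.28 for mitochondrial members. The groups did not overlap in 16 members (28.1%, background 30.1%), with all 3 TNF-α values above NC in 12 (21.1%, background 14.8%) and below in 4 (7.02%, background 15.3%), and they overlapped in 41. For HSPA6, among the 12, the filter on level fixed this order in advance.

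**Figure D2:**
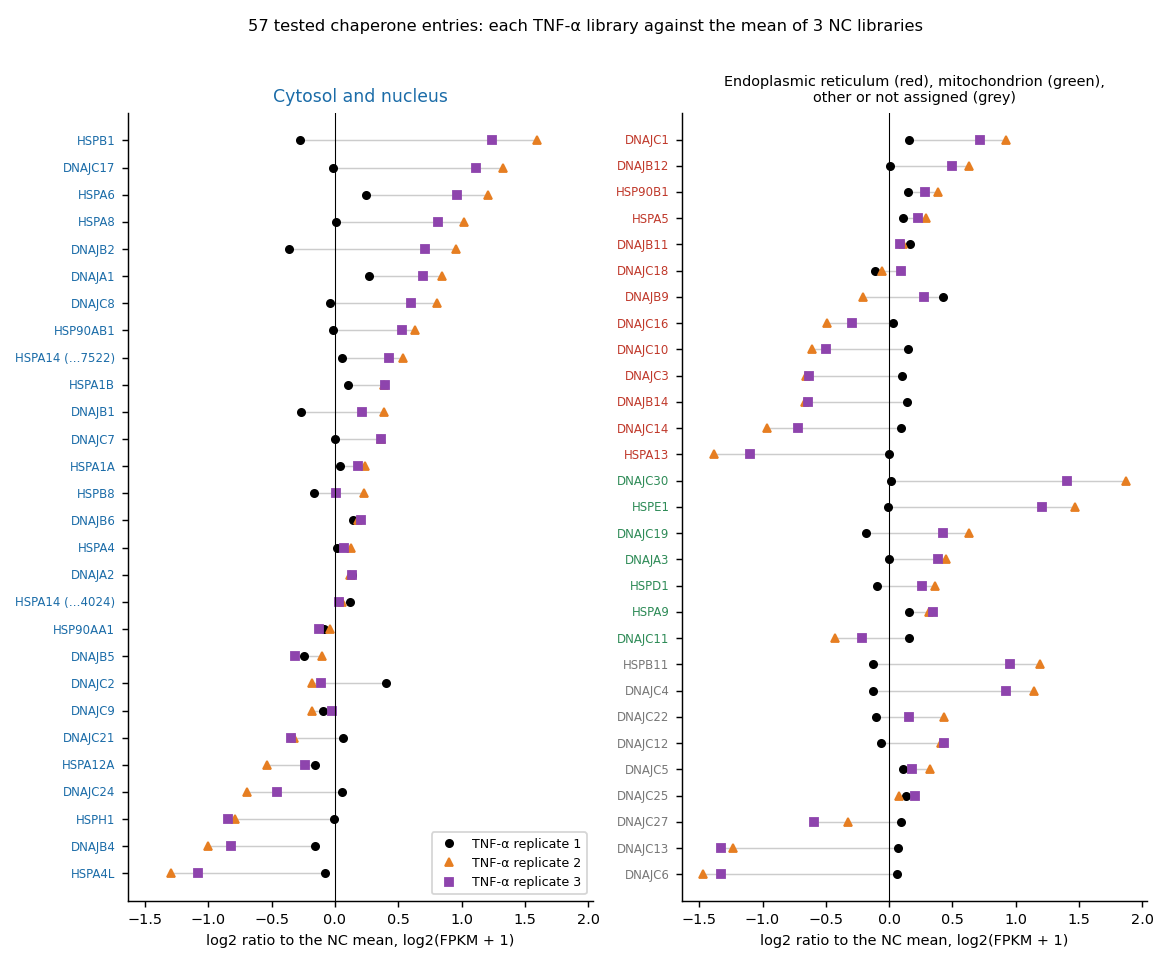
Log2 ratio of each TNF-α library to the NC mean on the log2(FPKM + 1) scale (x axis) for the 57 tested entries, coloured by compartment, with the 2 HSPA14 entries told apart by the end of their identifiers. TNF-α replicate 1 (black circles) keeps close to 0 with a median of 0.018, whereas replicates 2 and 3 (triangles and squares) spread widely in both directions with medians of 0.23 and 0.18.

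The treated replicates did not move alike. In TNF-α replicate 1, 3 members were at least 0.25 above the NC mean (5.26%, background 10.6%) and 3 at least 0.25 below (5.26%, background 10.4%). Replicate 2 had 27 members above (47.4%, background 43.3%) and 16 below (28.1%, background 37.3%), and replicate 3 had 24 above (42.1%, background 41.5%) and 15 below (26.3%, background 35.8%). Leaving out TNF-α replicate 1, limma called 44 members (77.2%, background 79.4%), 28 higher (background 42.6%) and 16 lower (background 36.8%). With TNF-α replicate 1 alone against NC it called 1 member, DNAJB9, against a background of 6.03%.

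Gene length moved with these ratios. Across the 57 entries, which share the same libraries, Spearman's rho between merged exon length and the log2 ratio was 0.099, -0.58 and -0.59 for the treated replicates in order, beside 0.048, -0.41 and -0.43 across all genes tested. The 16 members under 3 kb had median ratios of 0.028, 0.72 and 0.56 in the same order, and the 16 over 6 kb had 0.058, -0.51 and -0.32. After correction of each library for length and GC content, limma called 0 members (background 2.23%), and the smallest adjusted p was 0.112. This correction turned the sign of 14 members, 9 from below 0 to above (HSPA12A, HSP90AA1, DNAJC21, DNAJC24, DNAJB14, DNAJC10, DNAJC16, DNAJC18 and DNAJC27) and 5 from above 0 to below (HSPA1A, HSPA1B, DNAJB1, HSPB8 and DNAJC5), and log2 fold changes from it are called corrected below. The part of length and GC content in any single member's difference was not tested.

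**Figure D3:**
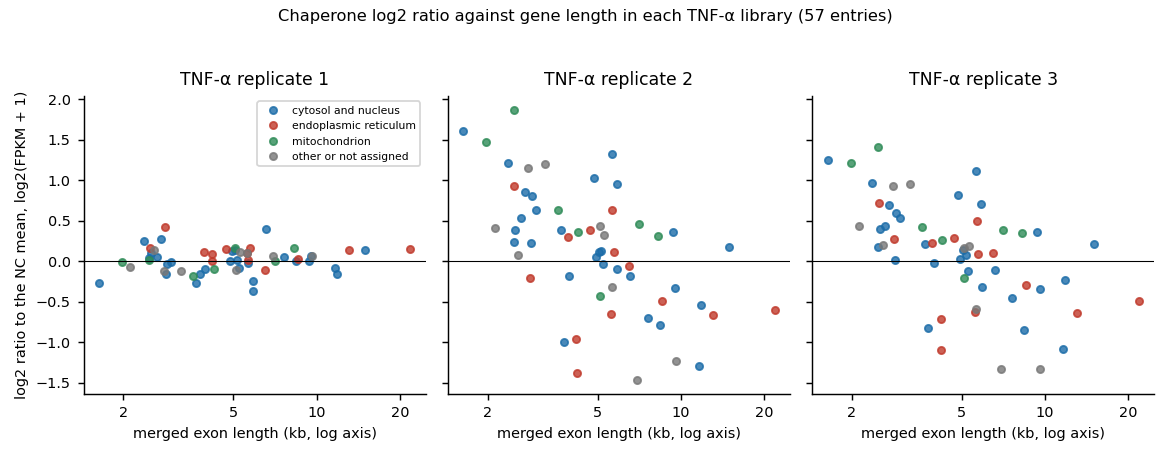
Log2 ratio to the NC mean on the log2(FPKM + 1) scale (y axis) against merged exon length in kb (log axis) for the 57 entries in each TNF-α replicate, coloured by compartment. The points lie flat in replicate 1 (rho 0.099) and slope downwards in replicates 2 and 3 (rho -0.58 and -0.59).

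Of the 28 cytosolic members tested 19 lay above 0 (53.0% of all genes tested did) and 9 below. The groups did not overlap in 6 that were higher (background 14.8%), HSPA6 among them, and in 4 that were lower (background 15.3%). Among the HSP70 proteins, HSPA8 measured 500.4, 488 and 483 FPKM in NC and 492, 998 and 861 FPKM with TNF-α. Replicate 1 lay inside the NC range and the other two were higher. Its log2 fold change was 0.61 ± 0.30 (SE, 95% interval -0.12 to 1.35, limma adjusted p = 0.198), 0.0059 with replicate 1 alone and 0.92 without it. HSPA1B (chr6:31827735-31830255), one of the near-identical stress-inducible HSP70 genes, measured 54.2, 50.5 and 55.6 FPKM in NC and 57.5, 70.3 and 70.7 FPKM with TNF-α, so that the groups did not overlap, with a log2 fold change of 0.30 ± 0.15 (SE, adjusted p = 0.203) that turned to -0.22 when corrected. Its neighbour HSPA1A (chr6:31815464-31817946) was lower, at 6.52, 5.43 and 7.11 FPKM in NC and 6.52, 7.64 and 7.28 FPKM with TNF-α, and its groups overlapped (log2 fold change 0.15, corrected -0.39). Of the stretches of 100 bases in HSPA1A and HSPA1B, 69.9% and 72.7% occur in another gene, mainly the partner copy, so the split of reads between these genes is uncertain.

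HSPA6 (GRCh38 chr1:161524540-161526910) encodes an HSP70 that is scarcely made in unstressed cells. It measured 0.922, 0.977 and 0.801 FPKM in NC and 1.25, 3.401 and 2.71 FPKM with TNF-α. All NC values were under 1 FPKM, so HSPA6 passed the filter on level only through its treated libraries. That every treated value lay above every control value followed from this filter and is not a separate result. The log2 fold change was 0.81 ± 0.26 (SE, 95% interval 0.19 to 1.43, unadjusted p = 0.0187, limma adjusted p = 0.195), and 0.29 after correction for length and GC content. These levels rested on 79, 76 and 61 reads in NC and 95, 209 and 156 reads with TNF-α, and 27.6% of the gene's 100-base stretches also occur in the pseudogene HSPA7. The HSPA14 entries, for an HSP70 that works at the ribosome, had log2 fold changes of 0.34 and 0.069 (corrected 0.25 and 0.17), and HSPA12A, a distant HSP70 relative, had -0.31 with all 3 TNF-α values below NC, which turned to 0.11 when corrected.

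None of the HSP110 exchange factors passed the test, and their values lay on both sides of 0. HSPH1 (HSP105) measured 41.8, 41.5 and 39.2 FPKM in NC and 40.7, 23.2 and 22.2 FPKM with TNF-α. TNF-α replicate 1 was inside the control range and the others were lower, with a log2 fold change of -0.55 ± 0.25 (SE, adjusted p = 0.195) that was -0.097 after the length and GC correction. HSPA4L measured 7.02, 6.87 and 5.95 FPKM in NC and 6.18, 2.09 and 2.58 FPKM with TNF-α, a log2 fold change of -0.82 ± 0.32 (SE, adjusted p = 0.195) that was -0.31 when corrected. HSPA4, the third of these genes, lay at 53.2, 54.5 and 54.5 FPKM in NC and 54.7, 59.2 and 56.8 FPKM with TNF-α (log2 fold change 0.072, corrected 0.29). HSPH1 and HSPA4L have merged exons of 8390 and 11621 bases and HSPA4 of 5153 bases.

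Both cytosolic HSP90 genes were among the most abundant members. HSP90AB1 measured 911, 884 and 913 FPKM in NC and 894, 1402 and 1301 FPKM with TNF-α (log2 fold change 0.38 ± 0.25 SE, adjusted p = 0.269). HSP90AA1, the inducible form, measured 496, 493 and 479.7 FPKM in NC and 462, 476 and 448 FPKM with TNF-α, each treated value slightly below the lowest control, with a log2 fold change of -0.084 (95% interval -0.50 to 0.33, adjusted p = 0.705). The ratio of HSP90AB1 to HSP90AA1 within a library was 1.84, 1.79 and 1.904 in NC and 1.94, 2.95 and 2.904 with TNF-α. All TNF-α ratios were above the NC ratios (two-sided exact permutation test, p = 0.1, the smallest that 3 against 3 allows). Corrected log2 fold changes were 0.21 for HSP90AB1 and, with the sign turned, 0.046 for HSP90AA1. The merged exons of the genes differ in length, at 2980 and 5248 bases.

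HSPB1 (chr7:76302544-76304295) had the widest spread over the treated libraries of the 9 members at 100 FPKM or more. Its FPKM was 427, 388 and 440.4 in NC and 345, 1269 and 992 with TNF-α, which put replicate 1 below every control and replicates 2 and 3 far above. The log2 fold change was 0.86 ± 0.49 (SE, 95% interval -0.33 to 2.05, limma adjusted p = 0.228), -0.28 with TNF-α replicate 1 alone (adjusted p = 0.131), 1.42 without that replicate and 0.24 after the length and GC correction. Its adjusted p over the alternatives ran from 3.52e-05 to 0.539. HSPB8, which works with the co-chaperone BAG3 in autophagy of damaged proteins, was the other small HSP expressed and measured 7.83, 7.84 and 7.87 FPKM in NC and 6.899, 9.36 and 7.89 FPKM with TNF-α (log2 fold change 0.024, corrected -0.32).

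Of the cytosolic J-domain proteins, DNAJA1, a farnesylated partner of HSC70, had higher FPKM in every treated library. It measured 222, 214 and 206 FPKM in NC and 258, 385 and 347 FPKM with TNF-α, with a log2 fold change of 0.60 ± 0.21 (SE, unadjusted p = 0.0261, limma adjusted p = 0.195), 0.27 with replicate 1 alone and 0.55 after the length and GC correction. On the TPM scale, where the median of all genes was -0.42, its log2 fold change was 0.10. DNAJB1, the inducible HSP40, measured 101, 97.8 and 103 FPKM in NC and 83.6, 132 and 117 FPKM with TNF-α. Replicate 1 was below all controls and the others above them, and the log2 fold change was 0.11 ± 0.21 (SE, adjusted p = 0.679) and -0.15 when corrected. DNAJB4, a relative of DNAJB1, was lower in every treated library, at 12.3, 12.2 and 10.9 FPKM in NC and 10.5, 5.37 and 6.23 FPKM with TNF-α (log2 fold change -0.66 ± 0.24 SE, adjusted p = 0.195). DNAJA2 and DNAJB6, a suppressor of protein aggregation, also had FPKM above NC in all 3 libraries, with log2 fold changes of 0.13 (corrected 0.38) and 0.18 (corrected 0.51). On the TPM scale these were -0.37 and -0.30. DNAJB5 was below NC in all 3, at -0.22 (corrected -0.34). DNAJC2, which acts on ribosomes with HSPA14, was above the controls in TNF-α replicate 1 at 13.3 FPKM and below them in replicates 2 and 3 (log2 fold change 0.038, corrected 0.35). DNAJC17 and DNAJC8, which are linked to splicing, were at or just below the NC level in replicate 1 and higher in the other two, with log2 fold changes of 0.81 (corrected 0.65) and 0.46 (corrected 0.36) over all 3. The others had overlapping groups, with log2 fold changes of 0.43 (corrected 0.23) for DNAJB2, which hands clients to the proteasome, 0.24 (corrected 0.61) for the HSP70 and HSP90 adaptor DNAJC7, -0.10 (corrected -0.13) for the histone chaperone DNAJC9, -0.20 (corrected 0.28) for the ribosome maturation factor DNAJC21 and -0.37 (corrected 0.083) for DNAJC24.

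Of the 13 ER members 6 lay above 0 (53.0% of all genes tested did) and 7 below. The 3 with the highest levels had FPKM above NC in all 3 treated libraries (background 14.8%). HSPA5, the main HSP70 of the ER, measured 227, 215 and 214 FPKM in NC and 236, 267 and 256 FPKM with TNF-α. HSP90B1, the ER HSP90 known as GRP94, measured 149, 153 and 152 FPKM in NC and 168, 198 and 184 FPKM with TNF-α. Neither gene's groups overlapped, and the log2 fold changes were 0.21 ± 0.16 and 0.27 ± 0.15 (SE, limma adjusted p = 0.328 and 0.223), and on the TPM scale, where the median of all genes was -0.42, -0.29 and -0.23. Corrected values were 0.17 and 0.48. DNAJB11 (ERdj3), a soluble partner of HSPA5, lay at 21.8, 22.5 and 20.7 FPKM in NC and 24.4, 23.5 and 22.99 FPKM with TNF-α, again without overlap (log2 fold change 0.12, adjusted p = 0.442, corrected log2 fold change 0.48). The ratio of HSPA5 to HSP90B1, the pair whose promoters hold the ER stress element, was 1.52, 1.401 and 1.41 in NC and 1.402, 1.35 and 1.39 with TNF-α, and the groups overlapped.

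DNAJB9 (ERdj4, chr7:108569568-108574850), a J-domain protein of ER-associated degradation and a standard target of the unfolded protein response, was the member called with TNF-α replicate 1 alone. Its FPKM was 7.07, 6.38 and 6.62 in NC and 9.302, 5.67 and 8.29 with TNF-α. Replicates 1 and 3 were above all controls and replicate 2 below them. The log2 fold change was 0.16 ± 0.19 (SE, limma adjusted p = 0.503) over all replicates and 0.42 with replicate 1 alone (limma adjusted p = 0.0428, with the spread taken from NC), and the adjusted p over the alternatives ran from 0.0428 to 0.831. After the length and GC correction the log2 ratios to NC were 0.42, -0.22 and 0.22 for the 3 treated libraries. In TNF-α replicate 1, 11 of the 13 ER members (84.6%) lay above the NC mean beside 48.3% of all genes tested, with a median log2 ratio of 0.11; in replicates 2 and 3 the numbers were 5 and 7 of 13, beside 53.0% and 52.5% of all genes.

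The remaining ER members split in TNF-α replicates 2 and 3. DNAJC1 (ERdj1), a membrane protein that recruits HSPA5 to translating ribosomes, measured 11.9, 12.8 and 12.8 FPKM in NC and 14.1, 24.7 and 21.2 FPKM with TNF-α without overlap (log2 fold change 0.60 ± 0.22 SE, unadjusted p = 0.0306, limma adjusted p = 0.195), with a corrected value of 0.31. DNAJC3 (p58IPK), another partner of HSPA5, measured 11.9, 12.04 and 10.8 FPKM in NC and 12.5, 6.98 and 7.12 FPKM with TNF-α, with replicate 1 above the controls and the others below (log2 fold change -0.40, adjusted p = 0.228), and the corrected value was -0.058. HSPA13, an ATPase related to HSP70 in microsomes, had the lowest log2 fold change in the ER, at 21.05, 20.1 and 17.9 FPKM in NC and 19.6, 6.92 and 8.62 FPKM with TNF-α. Its log2 fold change was -0.83 ± 0.36 (SE, 95% interval -1.70 to 0.034, adjusted p = 0.195) and -0.66 after the length and GC correction, which left the ratios in replicates 2 and 3 at -1.03 and -0.88. The disulfide reductase DNAJC10 (ERdj5) and the membrane proteins DNAJB14, DNAJC14 and DNAJC16 lay within or just above the NC range in replicate 1 and lower in replicates 2 and 3, with log2 fold changes of -0.32, -0.39, -0.53 and -0.25. Corrected, these were 0.24, 0.14, -0.71 and 0.14, so that DNAJC14 alone of the 4 stayed below 0. DNAJB12 was higher in replicates 2 and 3, with a log2 fold change of 0.38 (corrected 0.21). DNAJC14 overlaps other genes over 58.1% of its exons, and DNAJC18 had the value closest to 0 (-0.025, corrected 0.20).

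**Figure D4:**
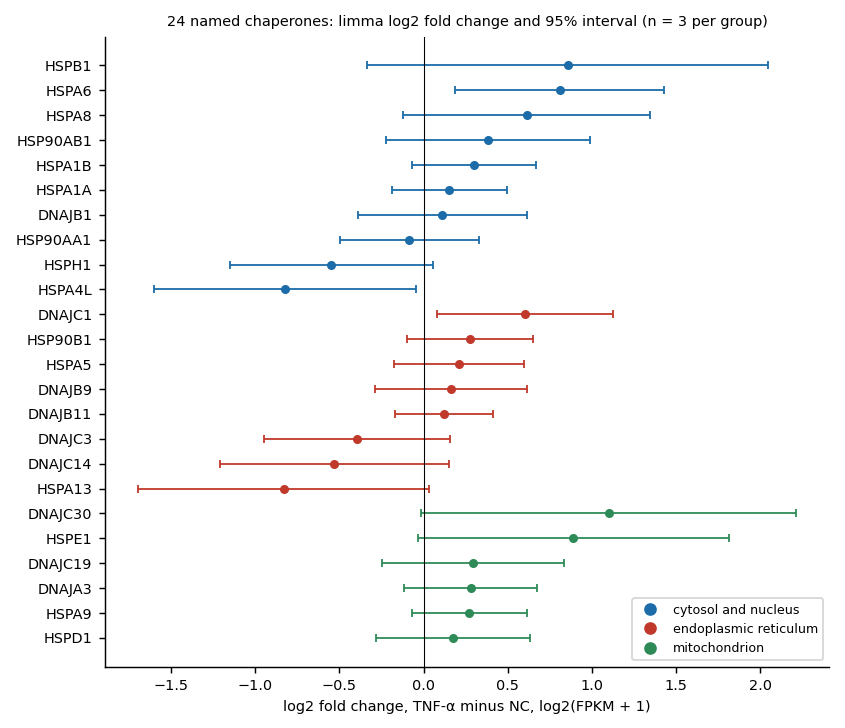
Limma log2 fold change (TNF-α minus NC on the log2(FPKM + 1) scale, x axis) and 95% interval of the 24 named chaperones, coloured by compartment, n = 3 per group. Most intervals include 0, and those of HSPA6, HSPA4L and DNAJC1 do not before adjustment.

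Of the 7 mitochondrial members tested 6 lay above 0 (53.0% of all genes tested did) and 1 below. HSPA9 (mortalin), the HSP70 that pulls proteins in through the inner membrane, had FPKM above NC in every treated library. It measured 73.2, 71.1 and 74.6 FPKM in NC and 81.7, 90.99 and 92.9 FPKM with TNF-α, a log2 fold change of 0.27 ± 0.14 (SE, limma adjusted p = 0.204) that was -0.23 on the TPM scale. Its merged exons run to 8254 bases, a length at which most members were lower in replicates 2 and 3, and after the length and GC correction the value was 0.66 (adjusted p = 0.163). Across the alternatives its adjusted p ran from 0.00286 to 0.954. DNAJC19 (the import motor's J-domain protein) measured 8.898, 8.801 and 8.64 FPKM in NC and 7.64, 14.2 and 12.1 FPKM with TNF-α. DNAJA3 (Tid1, a partner of HSPA9) measured 15.4, 14.5 and 16.2 FPKM in NC and 15.3, 21.4 and 20.4 FPKM with TNF-α. Both had overlapping groups, with log2 fold changes of 0.29 and 0.28 (adjusted p = 0.328 and 0.232).

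The chaperonin HSPD1 (HSP60) and its lid HSPE1 (HSP10) lie on opposite strands at chr2:197486581-197516737 and chr2:197499994-197503457 and work as one machine, and the HSPD1 promoter window printed above falls inside the annotated span of HSPE1. HSPD1 measured 228, 227 and 215 FPKM in NC and 209, 287 and 268 FPKM with TNF-α (log2 fold change 0.18 ± 0.19 SE, limma adjusted p = 0.477). HSPE1 measured 19.2, 19.2 and 17.6 FPKM in NC and 18.5, 53.3 and 44.3 FPKM with TNF-α (log2 fold change 0.89 ± 0.38 SE, adjusted p = 0.195). Both were at or near the NC level in replicate 1 and above it in the others. The ratio of HSPE1 to HSPD1 was 0.0842, 0.0843 and 0.0818 in NC and 0.0886, 0.186 and 0.165 with TNF-α, each treated ratio above the controls (two-sided exact permutation test, p = 0.1, the smallest possible). HSPE1 has merged exons of 1977 bases, of which 23.9% overlap other genes, and HSPD1 of 4245 bases. After the length and GC correction their log2 fold changes were 0.61 and 0.23.

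DNAJC30 (chr7:73680969-73683453), a short gene for a mitochondrial J-domain protein linked to respiratory complex I, had the highest log2 fold change of all members tested. It measured 4.44, 3.56 and 3.67 FPKM in NC and 3.93, 16.8 and 11.9 FPKM with TNF-α, with replicate 1 inside the NC range. Its log2 fold change was 1.10 ± 0.46 (SE, 95% interval -0.018 to 2.21, adjusted p = 0.195), 0.017 with replicate 1 alone and 0.71 after the length and GC correction. DNAJC11, found at the cristae junctions, was the mitochondrial member below 0 (-0.16, corrected -0.37).

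Among the members placed elsewhere, the vesicle and endosome proteins lay on both sides of 0. DNAJC5, the cysteine-string protein of secretory vesicles, was above NC in all 3 treated libraries, at 66.96, 64.9 and 71.3 FPKM in NC and 72.9, 85.1 and 76.8 FPKM with TNF-α (log2 fold change 0.20, limma adjusted p = 0.297), and the value turned to -0.027 when corrected. DNAJC6 measured 7.19, 6.53 and 6.55 FPKM in NC and 7.08, 1.803 and 2.09 FPKM with TNF-α. DNAJC13 (RME-8, on endosomes) measured 10.2, 9.64 and 10.1 FPKM in NC and 10.5, 3.67 and 3.37 FPKM with TNF-α. For both, replicate 1 was within or just above the control range and the other two were lower, with log2 fold changes of -0.91 and -0.83 (adjusted p = 0.195 and 0.195) that were -0.55 and -0.37 when corrected. HSPB11, which despite its name is a subunit of the intraflagellar transport complex, and DNAJC4 had log2 fold changes of 0.67 (corrected 0.41) and 0.65 (corrected 0.14), again from replicates 2 and 3. DNAJC12, DNAJC22, DNAJC25 and DNAJC27 ranged from -0.27 to 0.26, and when corrected from 0.0055 to 0.18.

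Of the 14 members not tested, DNAJB8 and HSPB7 were listed at 0 in every library. HSPB2, HSPB3 and DNAJB13 were listed above 0 in 2, 1 and 1 libraries, DNAJB7 in 4, and the highest of these values was 0.157 FPKM. HSPA1L, HSPA2, HSPA12B, DNAJA4, HSPB6, HSPB9, DNAJC15 and DNAJC28 were listed above 0 in every library and at most at 0.514 FPKM. The testis HSP70 genes HSPA1L and HSPA2 and the muscle-type small HSPs HSPB2, HSPB3, HSPB6 and HSPB7 are in this set.

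Among the factors and partners of these chaperones, 0 of the 80 tested genes of 5 pathway lists were called (background 1.01%). At an unadjusted p under 0.05 the lists held 19 genes (background 24.2%), and limma-voom on recovered reads also called 0. HSF1 measured 17.4, 18.4 and 20.8 FPKM in NC and 19.9, 41.2 and 36.1 FPKM with TNF-α, inside the control range in replicate 1 (log2 fold change 0.69, limma adjusted p = 0.195, corrected log2 fold change 0.41), and HSF2 had -0.44. The median log2 fold change was 0.33 over 19 cytosolic co-chaperones, 13 of which lay above the median of all genes on the FPKM, TPM and voom scales. In TNF-α replicate 1 these co-chaperones had a median ratio of -0.023, with 9 of the 19 above the median of all genes. The 14 genes of the cytosolic chaperonin TRiC and of prefoldin had a median of 0.46, and 13 of them lay above the median of all genes on the FPKM, TPM and voom scales. In TNF-α replicate 1 their median ratio was -0.053. The 17 mitochondrial import and quality control genes had a median of 0.27, with 12 above the median of all genes on each of the same scales. Their median ratio in TNF-α replicate 1 was 0.032. On the TPM scale the medians of these lists were -0.12, -0.040 and -0.16, beside -0.42 over all genes.

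For ER folding and the unfolded protein response, 28 genes were tested, 19 of them above the median of all genes on the FPKM, TPM and voom scales, with a median of 0.36 (-0.14 with TPM) and a smallest adjusted p of 0.164. The median ratio of the 28 in TNF-α replicate 1 was 0.053. Without TNF-α replicate 1, 17 of these were called higher (background 42.6%) and 8 lower (background 36.8%), and with that replicate alone 1 was called (background 6.03%). It was PPP1R15A (GADD34), which directs dephosphorylation of eIF2α and is named after its values were seen, with 18.5, 17.05 and 19.6 FPKM in NC and 25.8, 45.8 and 47.4 FPKM with TNF-α. Its log2 fold change was 1.02 over all replicates (adjusted p = 0.164), 0.52 when corrected and 0.47 with replicate 1 alone (limma adjusted p = 0.0424), with adjusted p of 1.33e-05 to 0.479 over the alternatives. XBP1, the transcription factor spliced on ER stress, measured 18.9, 18.4 and 17.5 FPKM in NC and 20.9, 28.6 and 29.99 FPKM with TNF-α. DDIT3 (CHOP) measured 8.15, 7.05 and 7.93 FPKM in NC and 7.83, 24.6 and 20.04 FPKM with TNF-α, both genes also being named after their values were seen. XBP1 was above NC in all 3 treated libraries and DDIT3 in replicates 2 and 3. Their log2 fold changes were 0.50 and 0.95 (limma adjusted p = 0.195 for both), and 0.48 and 0.67 when corrected. Of the 28 genes 19 lay above 0 (53.0% of all genes tested did) and 9 below. Those below were SEL1L (-1.05), CANX (-0.62), EDEM1 (-0.51), EIF2AK3 (-0.39), ERN1 (-0.38), HYOU1 (-0.32), SEC63 (-0.20), ATF6 (-0.13) and PDIA6 (-0.037). The same numbers held when corrected, with SEC63 and ATF6 turned above 0 and PDIA4 and SYVN1 below.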

How the data were processed

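RNA of 3 NC and 3 TNF-α cultures of U251 cells was sequenced as polyadenylated libraries. The authors deposited 1 table of FPKM per gene, normalized to merged exon length and a total set for each library. The submitters' processing notes name HISAT2 2.0.5, StringTie 1.3.3b, featureCounts 1.5.0, DESeq2, edgeR and GATK 3.7, without their roles. Gene identifiers, positions and lengths matched GENCODE release 29 (GRCh38) for all 58735 genes. Use of strand in counting is not given in the sources used here, so reads of genes that overlap on opposite strands cannot be told apart. The table has 6 further sample columns that match no sample label, which were not used.

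The 57 entries of at least 1 FPKM in at least 3 libraries were tested within all 12136 such genes by limma 3.58.1 (R 4.3.3) on log2(FPKM + 1), with a trended empirical Bayes variance, two-sided, Benjamini-Hochberg adjusted over all genes and called at an adjusted p under 0.05. A fold change on this scale understates the change of low genes. FPKM times length gave whole reads (within 0.02) for 100% of values, so limma-voom was run on recovered reads as an alternative. Length and GC correction used natural splines with 5 degrees of freedom per library, GC content being that of each gene's longest transcript. The fit was tested on simulated reads drawn from the NC means for every library, apart from genes changed by a known factor. These held no shift with length or GC content between libraries, so the simulation does not bear on calls made under such a shift. Sequence sharing was the percentage of 100-base stretches of a gene found in another gene. Promoter sequences came from RefSeq (GRCh38.p14). Python 3.11.15 and scipy 1.17.1 were used for the rest.

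Named chaperones were those past the threshold, the 3 highest in mean FPKM and the 3 with the largest absolute log2 fold change in each compartment, and a textbook set (HSPA1A, HSPA1B, HSPA8, HSPH1, HSP90AA1, HSP90AB1, DNAJB1, HSPB1, HSPA5, HSP90B1, DNAJB9, DNAJC3, HSPA9, HSPD1, HSPE1 and DNAJA3), 24 in all, with HSF1 and up to 3 called genes of each pathway list. Other chaperones are described to account for every member and were named after their values were seen. The members and lists were chosen with earlier results of these data known. Counting limits cover counting error only, since PCR duplicates cannot be told apart, and p-values measure the spread between the 3 cultures of each group.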

Additional observations from a re-analysis of the deposited data

How the results depend on the processing

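The call of 0 members held under 14 of the 16 alternatives (pseudocount, filters on level, TPM, median centring, length and GC correction, limma-voom, variance without a trend, replicate block, and leaving out any replicate but TNF-α replicate 1). Leaving out 1 replicate at a time gave 0 to 44 members and 0 to 70 pathway genes called, the highest numbers without TNF-α replicate 1, where 79.4% of all genes were called, and TNF-α replicate 1 alone gave 1 member and 1 pathway gene. Without TNF-α replicate 1, 20 of the 24 named chaperones passed the threshold with the same direction. The median of the members was -0.31 on the TPM scale, -0.090 with voom and 0.018 with TNF-α replicate 1 alone, where the medians of all genes were -0.42, -0.21 and -0.0065. The cytosolic median was -0.38 with TPM, 0.22 after length and GC correction, -0.14 with voom and -0.0026 with TNF-α replicate 1 alone. The ER median was -0.46, 0.17, -0.31 and 0.11 in the same order, and 0.14 at a minimum of 5 FPKM. The mitochondrial median was -0.21 with TPM, 0.029 with voom and -0.0021 with TNF-α replicate 1 alone. Of the 24 named chaperones, the following had log2 fold changes of the other sign, none of them called in these settings. With TPM these were -0.21 for DNAJA3, -0.39 for DNAJB1, -0.37 for DNAJB11, -0.30 for DNAJB9, -0.18 for DNAJC19, -0.12 for HSP90AB1, -0.23 for HSP90B1, -0.31 for HSPA1A, -0.20 for HSPA1B, -0.29 for HSPA5, -0.23 for HSPA9 and -0.33 for HSPD1. With voom they were -0.15 for DNAJB1, -0.14 for DNAJB11, -0.084 for DNAJB9, -0.090 for HSPA1A, -0.056 for HSPA5 and -0.090 for HSPD1, and after length and GC correction -0.15 for DNAJB1, 0.046 for HSP90AA1, -0.39 for HSPA1A and -0.22 for HSPA1B. With TNF-α replicate 1 alone they were -0.0021 for DNAJA3, -0.27 for DNAJB1, 0.092 for DNAJC14, -0.18 for DNAJC19, 0.099 for DNAJC3, -0.014 for HSP90AB1, -0.28 for HSPB1, -0.095 for HSPD1 and -0.0076 for HSPE1. DNAJB1 ranged from -0.025 to 0.30 over the fits without 1 replicate. The cause of these changes was not tested. With a replicate block limma called 0 members and 24 genes in all. Replicates with the same number correlated by -0.014, -0.18 and 0.12 in their deviations from the group means, so the numbers were not taken to pair the cultures.

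With 3 cultures per group, and TNF-α replicates 2 and 3 apart from replicate 1, the intervals of the members span up to 2.38 on the log2 scale, and differences well inside such intervals were not detectable. Depth limits the members under 1 FPKM. The DNAJB9 and PPP1R15A calls rest on 1 treated library, assumed to vary like the controls.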
